A study of Sus scrofa with 4 samples.

Results

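S100 proteins are small calcium-binding proteins with a pair of EF-hand loops that act mostly as dimers. Inside cells, calcium lets them grip partner proteins such as annexins, cytoskeletal proteins and ubiquitin ligase adaptors. Some members, above all the calgranulins S100A8, S100A9 and S100A12, are released by myeloid and epithelial cells and act on the receptors TLR4 and AGER and as metal-binding antimicrobial proteins. In mammals several members are made by the uterine lining, where steroid hormones and the conceptus act on its gene expression.

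The set described here holds 9 genes of the family, S100A1, S100A4, S100A6, S100A8, S100A9, S100A10, S100A11, S100A12 and S100A16, taken by symbol from the 21280 genes of the count tables and not by any measured value. Of the 9, 7 matched a row; S100A9 and S100A16 matched no symbol and are not analysed here. All 7 lie on chromosome 4 of Sscrofa11.1 in the RefSeq gene table. They are S100A1 (ENSSSCG00000031053, 96007026 to 96012305), S100A4 (ENSSSCG00000006578, 96088102 to 96091160), S100A6 (ENSSSCG00000021084, 96098264 to 96099686), S100A8 (ENSSSCG00000006590, 96209670 to 96210603), S100A12 (ENSSSCG00000032857, 96225691 to 96227030), S100A11 (ENSSSCG00000006610, 97233833 to 97239081) and S100A10 (ENSSSCG00000006612, 97261752 to 97272517). In that table the span of S100A1 is overlapped by S100A13 over 5026 bases. Reads of the 2 genes may therefore have been counted for one of them, and the sources used here do not say whether counting used strand, so the values of S100A1 are uncertain in this respect.

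Single cells of pig (Sus scrofa) tissue were sequenced in 4 groups of 1 library each: embryos of day 12 and of day 9 of pregnancy, and endometrium, the lining of the uterus, of day 12 and of day 9. Breed, the number of animals and whether tissue was pooled were not given in the sources used here. Embryos were dissociated with papain, dispase and DNase, and endometrium with collagenases, dispase and DNase, so tissue and enzyme cannot be told apart. With 1 library per group no difference has a replicate check, and none was tested; intervals are exact, at 95%, and cover counting error only.

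After filtering, 6671 and 7000 embryo cells of day 12 and day 9 and 8962 and 7984 endometrial cells of day 12 and day 9 were kept. They held 64299480, 82526421, 25457541 and 26070993 UMIs, and the median cell had 9297, 11883.5, 2233 and 2639 UMIs, both in the order just given. Between 2.80% and 3.40% of the kept cells of a library carried a barcode that was also a kept cell of another library. Only the day 9 embryo came with all its barcodes, so its near-empty ones could be read; their RNA is described with the results.

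Each library was clustered alone, with every S100 gene left out of the clustering, and clusters were named from marker genes. Because the names were rebuilt here, they may differ from those of the study. Embryo classes with 50 cells or more were trophectoderm-like (the outer layer that becomes placenta; 3248 cells on day 12 and 650 on day 9), hypoblast-like (the future yolk sac endoderm; 2541 and 5862) and, on day 12, epiblast-like (142) and mesoderm-like (199) cells. Endometrial classes were epithelial-like (354 cells on day 12 and 662 on day 9), stromal-like (5615 and 5091), smooth muscle or pericyte-like (392 and 566), blood endothelial-like (815 and 176), macrophage or monocyte-like (612 on each day), T or NK-like (658 and 686) and B or plasma-like cells (65 and 84). Ciliated epithelial-like cells passed 50 cells on day 9 alone (91 cells, against 43 on day 12). Clusters that stayed unnamed held 541, 467 and 408 cells of the day 12 embryo, day 9 embryo and day 12 endometrium. Trophectoderm-like cells had a median of 3.63% mitochondrial UMIs and 2094.5 genes on day 12, and 0.546% and 1579 on day 9. Hypoblast-like cells had 3.41% and 3.47% mitochondrial UMIs on the 2 days, and unnamed embryo cells 0.321% and 0.644%. The part of this difference in the trophectoderm ratios given below was not tested. The epithelial-like cells had 16 of 16 matched epithelial markers above 0 on both days, at a summed level of 7574 CPM on day 12 and 5127 CPM on day 9. The classes are named below without "like". A level is the summed UMIs of a class scaled by the total of that class in the usual CPM unit, and levels are compared within a gene only.

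The members fell into 3 patterns over the 21 class and library points. S100A6, S100A10 and S100A11 were found in every class, S100A1 and S100A4 had 1 or a few high classes over a low floor, and S100A8 and S100A12 were under 20 CPM in all but 1 point. S100A6 ran from 34.1 CPM in day 9 trophectoderm to 4125 CPM in day 12 stromal cells, with a median of 678 CPM. S100A10 ran from 144 CPM in day 12 B or plasma cells to 2808 CPM in day 12 mesoderm, with a median of 687 CPM. S100A11 ran from 104 CPM in the same B or plasma cells to 2385 CPM in day 9 trophectoderm, with a median of 1057 CPM. In order of level, neighbouring points had overlapping intervals in 6 of 20 steps for S100A6 and in 9 of 20 for S100A10 and for S100A11. For S100A8 and S100A12 the numbers were 19 and 18 of 20, and for S100A1 and S100A4 14 each. Points farther apart in that order did differ beyond counting error, such as S100A12 in stromal cells, at 15.1 CPM on day 12 against 0.0674 CPM.

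**Figure D1:**
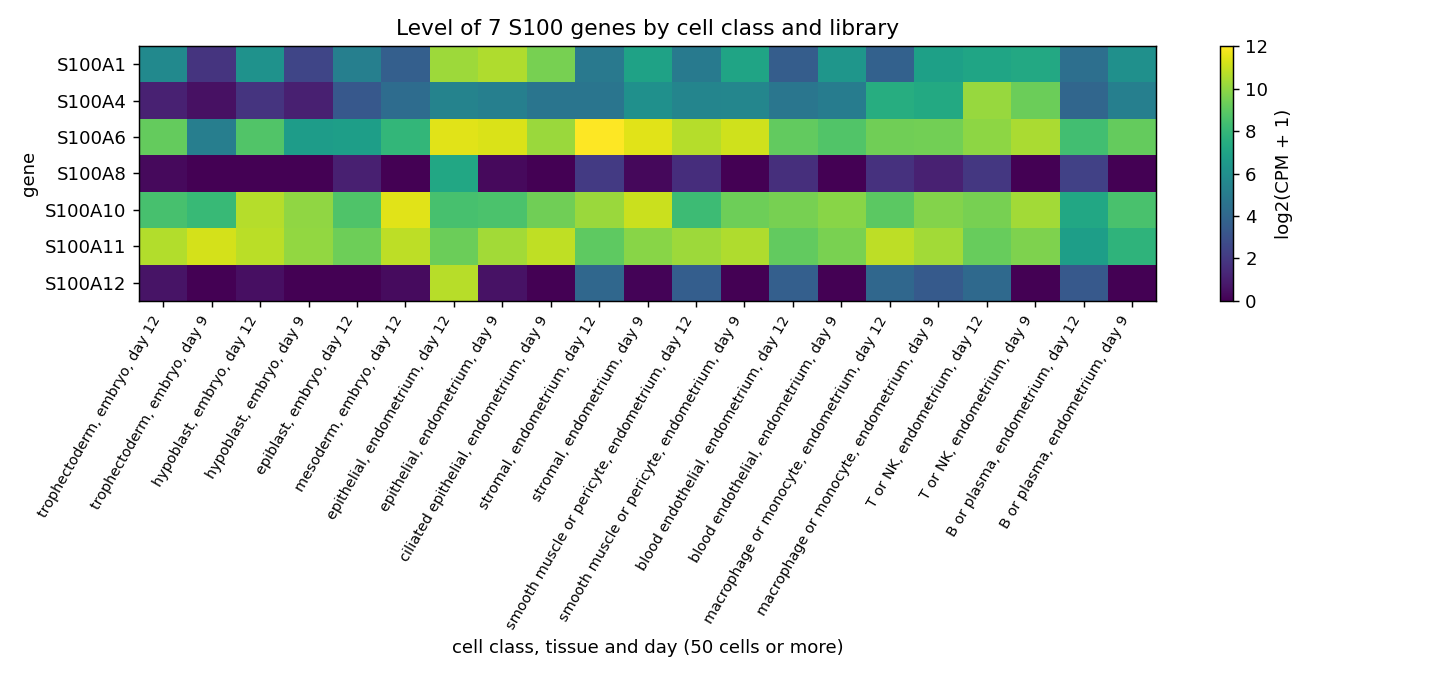
Heat map of the level of the 7 matched S100 genes (rows) as log2(CPM + 1) in each cell class, tissue and day with 50 cells or more (columns, day 12 left of day 9). S100A12 stands out in day 12 uterine epithelium at 1665 CPM, S100A1 in uterine epithelium of both days, and S100A6 is lowest in day 9 trophectoderm at 34.1 CPM.

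The first question was which members differed between day 12 and day 9 within a class. A gene entered at 20 CPM or more on at least 1 day and was called at 2-fold or more, on a log2 scale with 1 CPM added. In the embryo, 8 of 14 member and class pairs entered, of which 4 were higher on day 12 and 0 lower. In the endometrium 37 of 49 pairs entered, of which 2 were higher and 11 lower. A member that entered through its higher day alone had to differ, so these counts describe and do not support a direction.

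By class, 2 of 4 members were higher on day 12 in trophectoderm, where 25.0% of 4562 genes were, and 2 of 4 in hypoblast, where 10.3% of 4943 genes were; none was lower, beside 13.3% and 9.37% of genes in the 2 classes. In uterine epithelium all 7 members entered, 2 were higher beside 11.8% of 6569 genes, and 1 was lower beside 12.2%. In stromal cells 2 of 5 were lower beside 6.28% of 6285 genes, and in smooth muscle or pericyte cells 2 of 5 beside 4.72% of 6223. Of 5 members 1 was lower in blood endothelial cells and in macrophages or monocytes, beside 5.07% and 6.6% of genes. In T or NK cells none of 5 passed 2-fold, beside 17.1% of genes lower. In B or plasma cells, the smallest class, 4 of 5 were lower beside 21.9% of 2065 genes. No member was higher in these 6 classes, where 6.54%, 5.77%, 3.21%, 5.81%, 6.09% and 3.44% of genes were, in the order named.

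The median log2 ratio of the 4 members that entered was 2.15 in trophectoderm and 1.41 in hypoblast, beside 0.02 and -0.19 over all genes that entered. In trophectoderm S100A1, S100A6, S100A10 and S100A11 were at 3.90, 4.06, 0.39 and -0.59, so no member lay near that median. S100A1 entered in both classes through day 12 alone, so these medians also describe and do not support a direction. The median of the members was 0.14 in uterine epithelium and -0.86 in stromal cells, beside -0.12 and -0.09. It lay between -1.21 in B or plasma cells and -0.05 in macrophages or monocytes in the other 5 classes. Over all genes that entered in these classes it lay between -0.50 and -0.01, in the same 2 classes. For genes that reached 50 CPM on each day, the median ratio was -0.29 in trophectoderm, -0.16 in hypoblast and -0.38 in B or plasma cells, and within 0.1 of 0 in the others; scaling on those medians left each called direction of a member as it was.

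**Figure D2:**
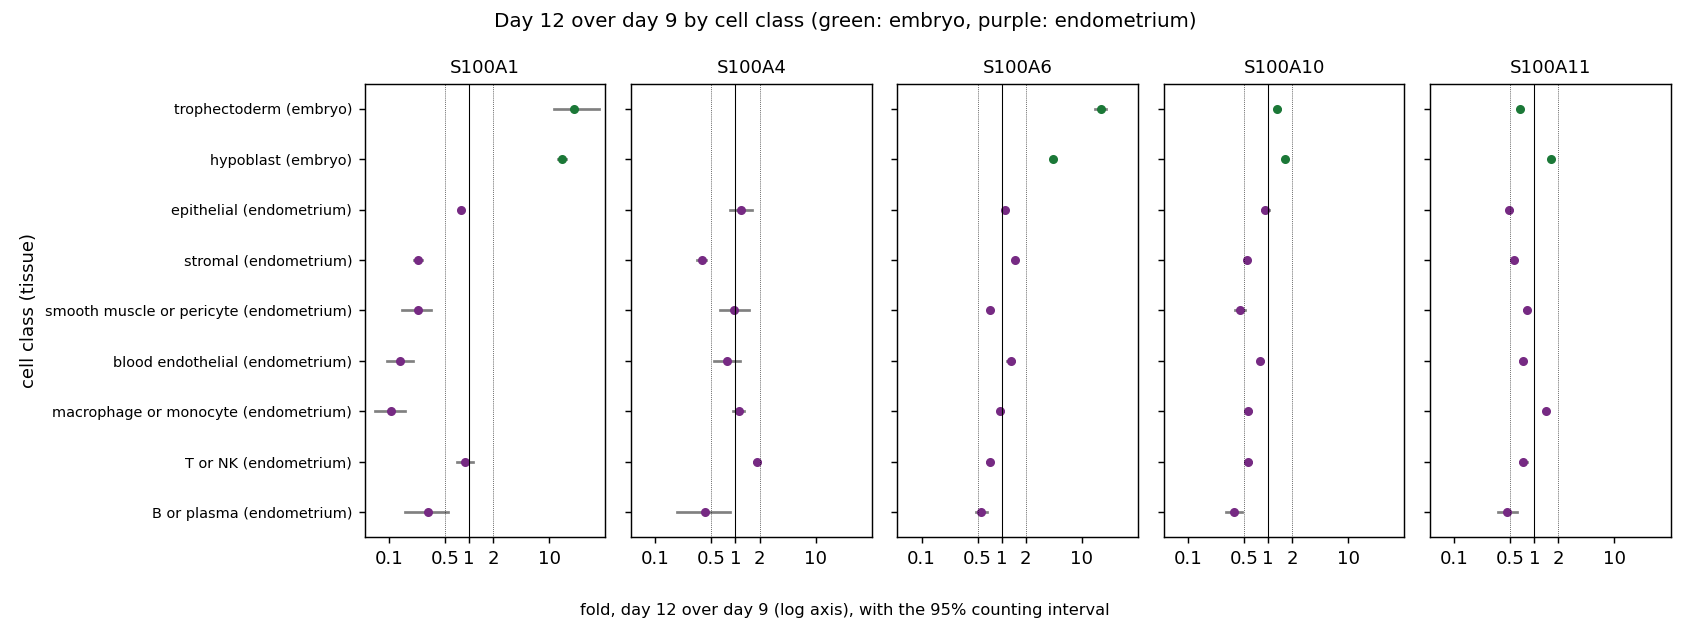
Fold of 5 S100 genes, day 12 over day 9 (log axis), by cell class for embryo (green) and endometrium (purple); points are ratios of CPM, bars the 95% counting interval, dotted lines 2-fold. S100A1 and S100A6 lie right of 2-fold in both embryo classes, and S100A1 lies left of it in 5 of 7 endometrial classes.

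Among the secreted calgranulins, S100A12 was abundant in the uterine epithelium of day 12, and S100A8 was found in a minority of its cells. Both were all but missing there on day 9. S100A12, whose protein acts on AGER and binds copper and zinc in other mammals, had 2361 UMIs in 354 epithelial cells on day 12 and 2 UMIs in 662 cells on day 9. The levels were 1665 CPM (1599 to 1734) and 0.485 CPM (0.0587 to 1.75), a ratio of 3436 with an interval of 950.1 to 28389. S100A8, which pairs with S100A9 in calprotectin, had 204 UMIs on day 12 and 1 on day 9, at 144 CPM (125 to 165) and 0.242 CPM (0.00614 to 1.35), a ratio of 594 (105 to 23566). The day 9 side of both ratios rests on 1 or 2 UMIs, so their size is known only as widely as these intervals say.

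Within the day 12 epithelium the calgranulins were unevenly spread. Cluster 9 (296 cells) held 87.1% of all S100A12 UMIs of the library, with 245 of its cells positive, and all 204 epithelial S100A8 UMIs. Cluster 14 (58 cells), also epithelial by its markers, had 7 UMIs of S100A12 and 0 of S100A8. Counted per cell, S100A12 had a median of 3 UMIs with quartiles of 0 and 8 and a highest cell of 77, and 74 of 354 cells held 10 or more. S100A8 was found in 75 cells, 68 of which also held S100A12, and 249 cells held S100A12 in all. In day 9 epithelium neither cluster 6 nor cluster 8 had more than 1 UMI of either gene.

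In the rest of the day 12 endometrium both calgranulins were low. S100A12 lay between 9.25 and 16.2 CPM in the 6 other classes. S100A8 lay between 1.99 and 3.97 CPM, from 2 to 41 UMIs per class, with wide intervals. With each cell thinned to 1000 UMIs, 54.5% of epithelial cells had S100A12 (49.2 to 59.8%, unthinned 70.3%), against 1.02% to 1.54% of cells in the other classes. The unthinned share was 3.19% of stromal cells, at a median depth of 2172 UMIs against 3482 UMIs in epithelium. No expression by these classes is read from such low shares, since the part of free RNA in them was not tested.

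On day 9, macrophages or monocytes were the only class with more than 2 UMIs of S100A12. They had 17 UMIs in 6 of 612 cells, of which 1 cell held 10, a level of 9.74 CPM (5.67 to 15.6). On day 12 the class had 33 UMIs in 20 of 612 cells, with 8 in the highest cell. Its level there was 15.4 CPM (10.6 to 21.6), inside the range of the other classes. S100A12 is a myeloid gene in other mammals. Over the other day 9 classes it had 0 UMIs in 5, 1 in stromal and 2 in epithelial cells.

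Neutrophils carry both calgranulins, so their markers were read in the same epithelial cells. Of the 11 matched markers described here, 5 were above 0 on day 12 and 8 on day 9. They summed to 35.3 CPM on day 12 and 33.0 CPM on day 9. The granule and effector genes MPO, ELANE, MMP9, PGLYRP1, AQP9 and PADI4 were at 0 in day 12 epithelium, and MPO, ELANE and MMP8 in day 9 epithelium. The part of neutrophils in the calgranulin levels was not tested.

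**Figure D3:**
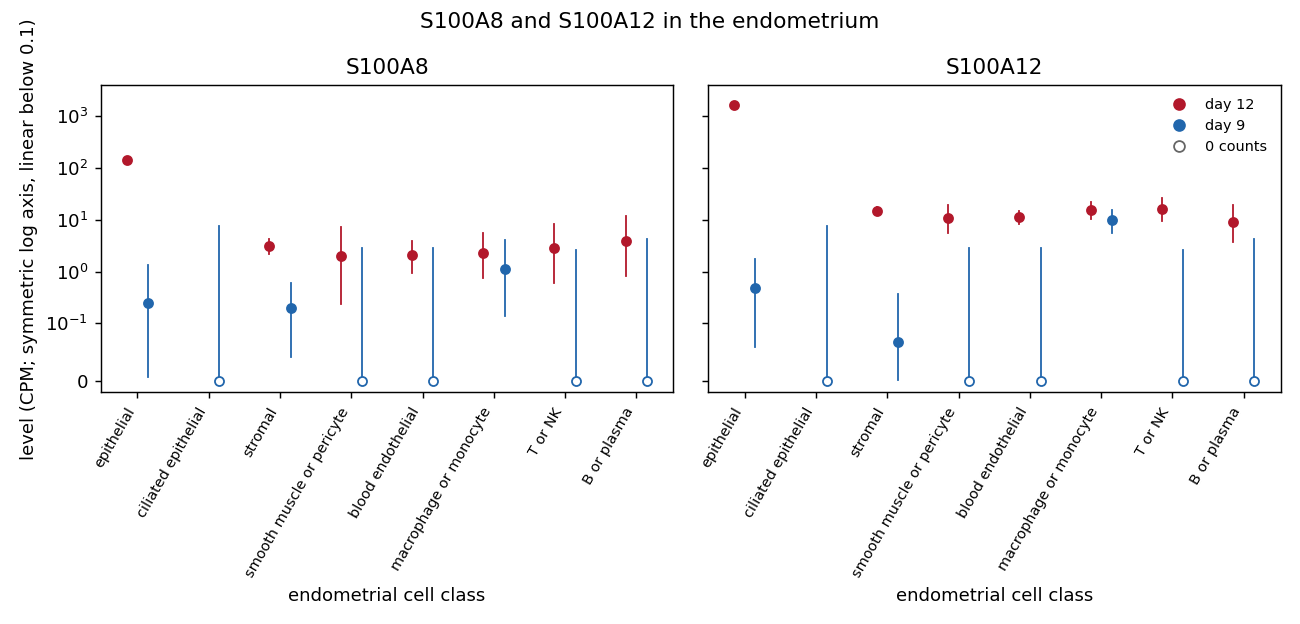
Level of S100A8 (left) and S100A12 (right) in each endometrial class on day 12 (red) and day 9 (blue), in CPM on a symmetric log axis that is linear below 0.1; points are levels, bars the 95% Poisson interval, open points 0 counts. Day 12 epithelium stands at 144 CPM of S100A8 and 1665 CPM of S100A12, over a low level in the other day 12 classes.

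In the embryo the calgranulins were close to absent. S100A12 had 16 UMIs in 3248 day 12 trophectoderm cells and 12 in 2541 hypoblast cells, against 0 in both classes on day 9, where 3 counts would be 0.678 and 0.0401 CPM. S100A8 had 7 and 0 UMIs in these classes on day 12 and 0 and 0 on day 9. Most of the UMIs of the day 12 embryo lay in 20 cells: cluster 11, unnamed, held 84 of the 113 S100A12 UMIs and 28 of the 37 S100A8 UMIs of the library, in 10 and 3 cells. The cluster had 8 of 14 detected epithelial markers high and S100A2 and SPINK9 as leading genes. Uterine epithelium of the same day had 1727 UMIs of S100A1 beside its 2361 of S100A12, while embryo trophectoderm had 1451 of S100A1 beside 16 and hypoblast 1985 beside 12.

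S100A1, which in muscle tunes calcium handling through the ryanodine receptor and SERCA, was higher on day 12 in the embryo and lower on day 12 in most of the endometrium. In trophectoderm it was at 51.2 CPM (48.6 to 53.9) on day 12 and 2.49 CPM (1.24 to 4.45) on day 9, where the day 9 level rests on 11 UMIs, and was 20.6-fold higher (11.5 to 41.3). In hypoblast it was at 68.6 CPM (65.6 to 71.7) and 4.76 CPM (4.28 to 5.28), and was 14.4-fold higher (12.9 to 16.2). The 7 day 12 clusters of both classes lay between 45.2 and 87.8 CPM and the 7 day 9 clusters between 2.49 and 9.33 CPM, so clusters of the 2 days did not overlap.

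Both other day 12 embryo classes also had S100A1, epiblast at 34.9 CPM and mesoderm at 11.6 CPM, the lowest of the 4. After thinning to 1000 UMIs, 6.38% of hypoblast cells had S100A1 on day 12 and 0.614% on day 9 (unthinned 44.0% and 5.44%). In trophectoderm the shares were 5.54% and 0.462% (unthinned 32.6% and 1.69%). These are shares of cells with a UMI, most of which held a single one.

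The uterine epithelium was the main site of S100A1 on both days, at 1218 CPM (1161 to 1277) on day 12 and 1548 CPM (1511 to 1587) on day 9, and was 1.27-fold lower (1.21 to 1.34). On day 12 the clusters differed, with 1306 CPM in cluster 9 and 584 CPM in cluster 14, and on day 9 cluster 6 had 1920.1 and cluster 8 1264 CPM. Ciliated epithelial cells of day 9 were at 745 CPM (671 to 825). Outside the epithelium the S100A1 level was lower on day 12 in all 6 classes, beyond counting error in 5. The differences were 9.42-fold lower (6.24 to 14.8) in macrophages or monocytes, 7.23-fold lower (5.05 to 10.5) in blood endothelial cells, 4.41-fold lower (2.95 to 6.79) in smooth muscle or pericyte cells, 4.32-fold lower (3.87 to 4.84) in stromal cells and 3.29-fold lower (1.83 to 6.26) in B or plasma cells. T or NK cells, at 133 CPM (112 to 157) and 149 CPM (129.5 to 171), were the exception, with an interval that held 1.

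Levels of other genes found in the epithelium were read outside it, beside those of S100A1. S100A1 had a mean of 0.0425 to 0.231 UMIs per cell over these 6 classes on day 12 and 0.286 to 0.667 on day 9, while epithelial cells had 4.88 and 9.65. S100A2, an epithelial gene of the same family, was lower on day 12 in the same 6 classes, for example at 15.8 CPM against 51.6 CPM in stromal cells, and the protease inhibitor gene SLPI was at 25.5 against 68.0 CPM there. SLPI was lower on day 12 in 5 of the 6 classes and higher in blood endothelial cells, at 804 CPM against 635 CPM. These 2 levels lay above those of epithelium, at 372 and 435 CPM, so SLPI does not mark epithelial RNA alone. The 16 matched epithelial markers summed to 362 CPM in stromal cells on day 12 and 434 CPM on day 9, and to 225 and 487 CPM in macrophages or monocytes. They too were lower in 5 of the 6 classes. In blood endothelial cells, where S100A1 was lower, the markers were higher on day 12, at 519 CPM against 451 CPM. The epithelial list holds SOX17, which is also on the list of blood endothelial markers, so this sum is not a measure of epithelial RNA alone. In T or NK cells, where the S100A1 interval held 1, they were at 296 CPM against 551 CPM. Epithelial cells were fewer on day 12, 354 of 8962 against 662 of 7984. The part of free epithelial RNA in the S100A1 levels was not tested.

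On day 9 the ratio of S100A1 to S100A2 UMIs was 1.68 in epithelium and 1.56 to 2.80 in the 6 other classes without cilia. On day 12 it was 0.963 in epithelium and 0.569 to 3.75 in 5 of the 6 others. T or NK cells of day 12 stood apart at 11.6, with 139 UMIs of S100A1 in 74 cells and 12 UMIs of S100A2.

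**Figure D4:**
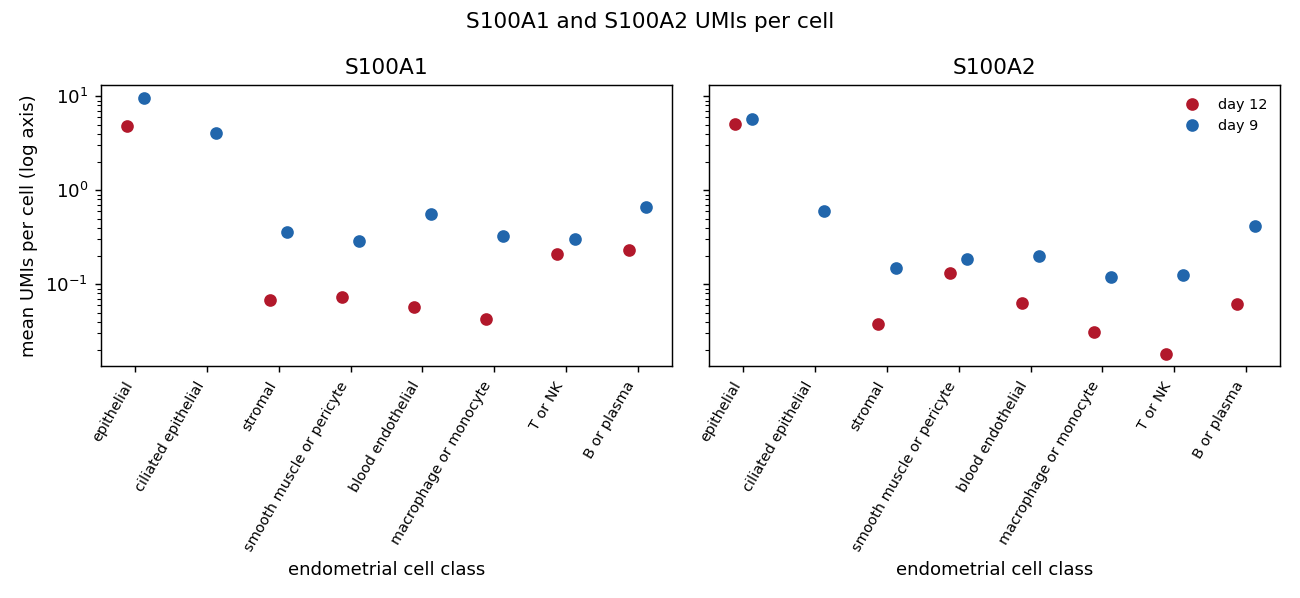
Mean UMIs per cell (log axis) of S100A1 (left) and S100A2 (right) in each endometrial class on day 12 (red) and day 9 (blue). Epithelium is highest for both genes, and the day 12 point lies under the day 9 point in every class that has both; S100A1 in T or NK cells, at 0.211 and 0.303, lies closest among the S100A1 points.

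S100A6, or calcyclin, which binds annexins and the calcyclin-binding protein CACYBP and is named for its expression over the cell cycle, was higher on day 12 in both embryo classes. In trophectoderm it was at 584 CPM (575 to 593) on day 12 and 34.1 CPM (28.9 to 40.0) on day 9, and was 17.1-fold higher (14.6 to 20.2). In hypoblast it was at 432 CPM (424 to 439.6) and 99.2 CPM (97.0 to 102), and was 4.35-fold higher (4.23 to 4.48). The 4 day 12 trophectoderm clusters lay between 539 and 734 CPM, all above the single day 9 cluster. Hypoblast clusters varied more and overlapped between days: cluster 9 of day 12, led by the transthyretin gene TTR, had 116 CPM, and the 6 day 9 clusters had 56.6 to 136 CPM.

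CACYBP itself went the other way. It was at 79.7 CPM in day 12 trophectoderm against 240.1 CPM on day 9, and at 64.5 against 169 CPM in hypoblast. SUGT1, whose protein also binds S100A6, was at 39.1 against 84.8 CPM in trophectoderm. In day 12 epiblast and mesoderm S100A6 was at 106 and 249 CPM.

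In the endometrium S100A6 was within 2-fold between days in all 7 classes. Stromal cells, its highest class, had 4125 CPM (4090.4 to 4159) on day 12 and 2799 CPM (2772 to 2826) on day 9, and were 1.47-fold higher (1.46 to 1.49). Epithelial cells had 2869 and 2610 CPM, and blood endothelial cells 561 and 433 CPM. It was lower on day 12 in smooth muscle or pericyte cells at 1622 and 2289 CPM, in T or NK cells at 1014 and 1426 CPM, and in B or plasma cells at 327 and 585 CPM. Macrophages or monocytes, at 678 and 704 CPM, did not differ beyond counting error.

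Clusters of a class differed by more than the days did. Day 9 epithelial cluster 6 had 4423 CPM of S100A6 and cluster 8 had 1225 CPM; day 12 clusters 9 and 14 had 3071 and 1416 CPM. The small difference between days in epithelium, 1.10-fold, was -0.06 on the log2 scale when each cell was weighted equally. In T or NK cells the direction depended on the clustering: the log2 ratio was -0.49, and 0.29 at a Leiden resolution of 1.0. Stromal markers in that class were higher on day 9, as given with S100A4 below, and the part of stromal RNA was not tested.

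S100A10, the partner that carries annexin A2 to the membrane and anchors plasminogen activators there, was highest in mesoderm, stromal cells and hypoblast. Day 12 mesoderm had the highest level of all points, 2808 CPM (2755 to 2863); no day 9 cluster was named mesoderm. Hypoblast was at 1648 CPM (1633 to 1662) on day 12 and 1024 CPM (1017 to 1032) on day 9, and was 1.61-fold higher (1.59 to 1.63). Trophectoderm was far lower, at 361 CPM (354 to 368) and 275 CPM (259.9 to 291), and was 1.31-fold higher (1.24 to 1.39). That small difference turned to -0.23 on the log2 scale, against 0.39, with day 9 cells called at 1000 UMIs.

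In the endometrium S100A10 was lower on day 12 in all 7 classes, beyond counting error in 6. Stromal cells, the highest class, had 1160.4 CPM (1142 to 1179) on day 12 and 2100 CPM (2077 to 2123) on day 9, and were 1.81-fold lower (1.78 to 1.85). Their 5 day 12 clusters lay between 601 and 1344 CPM and their 3 day 9 clusters between 1736 and 2317 CPM, without overlap. Past 2-fold were smooth muscle or pericyte cells, at 296 and 661 CPM and 2.23-fold lower (1.95 to 2.55), and B or plasma cells, at 144 and 380.5 CPM. T or NK cells had 745 and 1315 CPM, macrophages or monocytes 507 and 891 CPM, and blood endothelial cells 748 and 934 CPM. In T or NK cells stromal markers were also higher on day 9, as given with S100A4 below, and the part of stromal RNA was not tested. Epithelial cells, at 367 and 396 CPM, did not differ beyond counting error.

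Annexin A2 (ANXA2), its main partner, passed 2-fold in B or plasma cells alone, at 76.7 CPM on day 12 against 246 CPM, and was at 226 and 358 CPM in epithelium. PLAT, tissue plasminogen activator, which the S100A10 and annexin A2 complex holds at the cell surface, was at 25.4 CPM in day 12 hypoblast against 0.254 CPM on day 9. AHNAK, a scaffold bound by that complex, was at 101 against 30.5 CPM there.

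S100A11, which binds annexin A1 and is found in many epithelia, was high in nearly every class and moved in opposite directions in the 2 main embryo classes. In trophectoderm it was at 1586 CPM (1572 to 1601) on day 12 and 2385 CPM (2339.6 to 2431) on day 9, and was 1.503-fold lower (1.47 to 1.54). In hypoblast it was at 1730.1 CPM (1715 to 1745) and 1057 CPM (1049.7 to 1064), and was 1.64-fold higher (1.62 to 1.66). Of the 4 day 12 trophectoderm clusters, 3 had 1477 to 1779 CPM, and cluster 6, at a median of 4153 UMIs per cell, had 2533 CPM. Mesoderm was at 1809 CPM and epiblast at 662 CPM on day 12.

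Uterine epithelium had 633 CPM (593 to 676) of S100A11 on day 12 and 1293 CPM (1258 to 1328) on day 9, and was 2.04-fold lower (1.90 to 2.19), just past the 2-fold line; scaled on the median of ratios it lay just inside it, at -0.97 on the log2 scale. The 2 epithelial clusters of day 12, at 627 and 676 CPM, lay under the 2 of day 9, at 1099 and 1441 CPM. Day 9 ciliated cells had 1838 CPM. Macrophages or monocytes were the one endometrial class with more S100A11 on day 12, 1808 CPM (1751 to 1866) against 1289 CPM (1236 to 1343), and were 1.40-fold higher (1.33 to 1.48). Stromal cells had 514 and 929 CPM, smooth muscle or pericyte cells 1228 and 1534 CPM, blood endothelial cells 559.7 and 782 CPM, T or NK cells 601 and 822 CPM, and B or plasma cells 104 and 226 CPM, each lower on day 12 beyond counting error.

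Annexin A1 (ANXA1), the partner of S100A11, was higher on day 12 in every class where it is named here. T or NK cells are not among these classes. List genes are named for the size of their difference between days, so this is a description. ANXA1 was at 62.8 CPM on day 12 against 12.0 CPM in trophectoderm and 295 against 54.6 CPM in hypoblast. In the endometrium it was at 1986 against 422 CPM in stromal cells, 1071 against 470.2 CPM in macrophages or monocytes and 329 against 167 CPM in epithelium. In trophectoderm, stromal cells and epithelium the gene of the annexin was thus higher and that of its S100 partner lower on day 12. The same was seen in smooth muscle or pericyte, blood endothelial and B or plasma cells. In hypoblast and in macrophages or monocytes both genes were higher on day 12.

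S100A4, which binds nonmuscle myosin and marks migrating cells and fibroblast subsets, was highest in T or NK cells of the endometrium and near 0 in the embryo. T or NK cells had 1153 CPM (1088 to 1219.5) on day 12 and 626 CPM (586 to 669) on day 9, and were 1.84-fold higher (1.68 to 2.01). Thinned to 1000 UMIs, 55.6% of these cells had S100A4 on day 12 and 33.7% on day 9 (unthinned 63.4% and 42.4%), against 5.08% and 2.57% of epithelial cells. The markers of the class differed between days as well: 18 of 19 matched T or NK markers were above 0 on both days, at a summed level of 29809 CPM on day 12 and 12283 CPM on day 9. Stromal markers in the same cells, 16 and 17 of 18 above 0, summed to 5349 CPM on day 12 and 21641 CPM on day 9, more than the T or NK markers of day 9. The part of stromal RNA in the S100A4 difference, and in that of any other member in this class, was not tested. The S100A4 difference also depended on where the class was drawn: at a Leiden resolution of 1.0 its log2 ratio was 0.13, against 0.88. Cluster 8 of day 12 (360 cells), led by the killer cell gene KLRB1 but unnamed, had 326 CPM.

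Macrophages or monocytes had 175 and 159 CPM of S100A4, which did not differ beyond counting error. Stromal cells had 24.7 CPM (22.1 to 27.5) on day 12 and 65.3 CPM (61.2 to 69.5) on day 9, and were 2.64-fold lower (2.33 to 3.002); with each cell weighted equally the log2 ratio was -0.96, just inside 2-fold, against -1.37. The day 9 level came mostly from 1 cluster: cluster 2, with PI16 and IGFBP6 among its leading genes, had 124 CPM, and clusters 1 and 3 had 35.6 and 14.4 CPM, while the 5 day 12 clusters had 7.75 to 32.5 CPM. In epithelial, smooth muscle or pericyte and blood endothelial cells the level was 40.9, 42.8 and 25.2 CPM on day 12 against 34.9, 43.9 and 32.2 CPM on day 9, with intervals of the ratio that held 1. B or plasma cells, at 14.5 and 34.9 CPM from 11 and 30 UMIs, were lower on day 12.

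In the embryo S100A4 did not reach 20 CPM in any class. Mesoderm had 17.8 CPM (13.8 to 22.6) and epiblast 8.99 CPM (5.24 to 14.4) on day 12. Hypoblast had 2.45 CPM on day 12 and 1.11 CPM on day 9, and trophectoderm 1.13 and 0.452 CPM.

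The B or plasma calls were the least firm of all. With S100 genes among the variable genes, or at a Leiden resolution of 1.0, the class changed its cells. The log2 ratios of S100A4, S100A10 and S100A11 were 0.08, -0.65 and -0.67, against -1.21, -1.39 and -1.10, and S100A1 was the only member still past 2-fold there.

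Other genes of the family and of its pathways were read from 5 lists. Of 11 other S100 genes listed 6 matched, of which none entered in trophectoderm and at most 2 in any class. S100A2 was at 1265 CPM in day 12 epithelium against 921 CPM on day 9, and at 41.1 against 21.7 CPM in hypoblast. S100G, the vitamin D-dependent calcium buffer calbindin, was at 42.3 against 72.7 CPM in epithelium. S100A2 passed 2-fold lower in 5 endometrial classes, where 5.07% to 21.9% of genes did, beside S100A1 as given above. Of 14 intracellular partners 13 matched: 1 of 8 that entered was 2-fold higher and 3 lower in trophectoderm, 3 of 9 and 1 in hypoblast, 1 of 9 and 1 in epithelium, and 2 of 11 and 0 in stromal cells. Of all genes that entered, 25.0% were higher and 13.3% lower in trophectoderm, 10.3% and 9.37% in hypoblast, 11.8% and 12.2% in epithelium, and 6.54% and 6.28% in stromal cells. With so few genes in the list, these counts are given as a description.

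Receptors of secreted S100 proteins matched 8 of 9. In epithelium 2 of the 6 that entered were higher on day 12 and 1 lower, beside 11.8% and 12.2% of all genes. TLR4, the lipopolysaccharide receptor that binds calprotectin, was at 59.96 CPM against 5.09 CPM (85 and 21 UMIs), and its co-receptor CD14 at 28.9 against 9.69 CPM. ALCAM, at 31.0 against 65.9 CPM, was lower. In macrophages or monocytes CD14 was at 41.0 CPM on day 12 against 277 CPM on day 9. In trophectoderm NPTN, which encodes neuroplastin, was the 1 receptor that entered, at 81.2 against 26.0 CPM.

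NADPH oxidase subunits, to which the S100A8 and S100A9 dimer delivers arachidonate in neutrophils, entered with 2 of 5 matched genes in epithelium. RAC2 was at 38.1 CPM on day 12 against 17.2 CPM and CYBA at 128 against 219 CPM. Of the antimicrobial proteins, 3 of 8 matched genes entered in epithelium, none higher and 1 lower, beside the same 2 shares of all genes. PIGR, the immunoglobulin transporter, was at 22.6 against 75.6 CPM, WFDC2 at 145 against 217 CPM and SLPI at 372 against 435 CPM. In the embryo WFDC2 was higher on day 12, at 54.1 against 3.84 CPM in trophectoderm and 41.5 against 2.82 CPM in hypoblast.

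The genes most alike in pattern were taken by Pearson r of log2(CPM + 1) over the 21 points, among 10307 genes; the points share 4 libraries, and r is given as a description. S100A12 was most like ENSSSCG00000006588 (r = 0.966), UABP-2 (0.942), a uteroferrin-associated protein, and TRPV5 (0.882), a calcium channel gene. ENSSSCG00000006588 has no symbol here. Other S100 genes were left out by symbol only, so it could be a gene of the family, such as the unmatched S100A9. Its identity was not tested. S100A8 was most like NMU (0.942), which encodes neuromedin U, then UABP-2 (0.941) and ENSSSCG00000006588 (0.941). S100A1 was most like a gene without a symbol (0.913), TPD52L1 (0.912) and PSPH (0.909). S100A6 was most like ZHX1 (0.925) and the immediate early genes FOSB (0.913) and EGR1 (0.907). S100A4 was most like the leukocyte genes ADGRE5 (0.954) and SLA (0.949). S100A11 had NDUFB10 (0.895) and S100A10 had KDELR3 (0.832) as nearest genes. Between members, S100A8 and S100A12 had r = 0.960, S100A1 and S100A6 r = 0.689, and S100A10 and S100A11 r = 0.351. S100A8 and S100A12 were under 20 CPM in all points but day 12 uterine epithelium. That point therefore weighs heavily in each r given for these genes.

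The near-empty barcodes of the day 9 embryo, 506870 barcodes with 1 to 100 UMIs and 1347756 UMIs in all, held another mix of members than the cells. S100A6 was at 430.3 CPM in them and 95.9 CPM in the cells, S100A4 at 65.3 and 1.18 CPM, S100A1 at 28.2 and 4.63 CPM and S100A12 at 8.90 CPM (12 UMIs) and 0.0121 CPM (1 UMI). S100A10, at 988 and 998 CPM, did not differ beyond counting error.

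Some of these barcodes were also kept cells of another library. Those of day 12 endometrial cells (8269 barcodes, 76686 UMIs) held 8 of the 12 S100A12 UMIs and S100A6 at 1929.9 CPM. Those of day 9 endometrial cells (7411 barcodes, 70897 UMIs) held 16 of the 38 S100A1 UMIs, at 226 CPM, and 0 of S100A12. Those of no kept cell elsewhere (486899 barcodes, 1191293 UMIs) had S100A1 at 17.6 CPM, S100A6 at 262 CPM and 4 UMIs of S100A12. Whether RNA passed between libraries was not tested. Leaving out the kept cells whose barcode was shared left the counts of calls at 4 and 0 in the embryo and 2 and 11 in the endometrium.

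**Figure D5:**
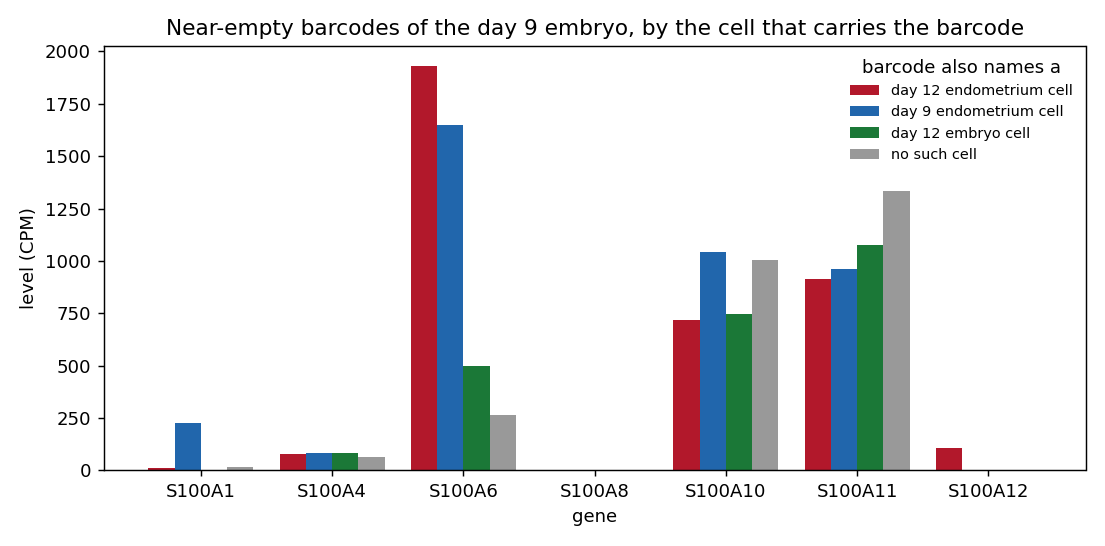
Level in CPM (bars from 0) of the 7 members in near-empty barcodes of the day 9 embryo, by the library in which the same barcode was a kept cell: day 12 endometrium (red), day 9 endometrium (blue), day 12 embryo (green) or none (grey). The level of S100A12 is highest under barcodes of day 12 endometrial cells (8 of 12 UMIs) and that of S100A1 under those of day 9 endometrial cells (16 of 38 UMIs, with 21 under barcodes of no kept cell).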

How the data were processed

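Single-cell RNA was measured in 4 libraries (embryo and endometrium of day 12 and day 9), made with 3' droplet chemistry, per the labels' protocols. The authors deposited raw UMI counts by gene and barcode. The submitters' processing notes name Cell Ranger 6.1.2 and the build Sscrofa11.1; per the file headers the version was 4 for the day 9 embryo and 6.1.2 for the others. Of 21280 genes, 14811 had a symbol as deposited and 694 others took one from a RefSeq table of the same build, which also gave coordinates; the files' own annotation may place genes otherwise.

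From these counts, day 9 embryo cells were called where a barcode reached 0.1 times the 99th percentile among the 3000 largest totals. That set a cut of 2759 UMIs, while the other libraries were taken with the barcodes as deposited. In the embryo, day therefore cannot be told apart from the way cells were called and the Cell Ranger version. Kept cells had 1000 UMIs or more, 500 genes or more and no more than 20% of UMIs from 13 mitochondrial genes. Scrublet (scanpy 1.11.5) marked 93 doublets in embryos of day 12, 1 in those of day 9 and 0 in either endometrium, which were removed; under 0.5% were marked in 3 libraries, a share too low to count as a working doublet filter, so doublets may remain there. Clustering was by library, with the Leiden method at resolution 0.6 on 15 neighbours, 30 components and 2000 variable genes (seed 0), with no S100 gene among the variable genes. Clusters were named from 227 of 257 markers: a marker was high at 0.5 of its highest cluster level or more, and a class needed 3 high markers. A cluster whose leading genes went against that class stayed unnamed.

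Class sums were scaled to CPM, with exact Poisson intervals for levels and exact binomial intervals for ratios and shares (Clopper-Pearson), at 95%, by scipy 1.17.1. No test was run. The depth of the kept cells, 25457541 to 82526421 UMIs per library, sets these intervals; they cover counting error only. A level at 0 is set against 3 counts. The step that computes ratios was checked on simulated data. List genes named are at most 4 per list and class, at 20 CPM or more, those that differ most between days; genes alike in pattern are the 3 of highest r per member. One neutrophil marker and its level are not reported here, so the neutrophil sums leave it out. Members and lists were chosen with earlier results of these data known. Alternatives were scaling, cell weighting, pseudocount, filters, clustering, doublets, cell calling and shared barcodes, and, added after seeing the data, leaving out embryo clusters.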

Additional observations from a re-analysis of the deposited data

Results flagged for a closer look

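The direction of 3 members differed between the tissues when whole libraries were compared, day 12 over day 9. S100A1 had a fold of 12.4 in the embryo and 0.267 in the endometrium, S100A10 1.14 and 0.596, and S100A11 1.45 and 0.645. Whole libraries also differ in their mix of classes. Trophectoderm was 48.7% of embryo cells on day 12 and 9.29% on day 9, and uterine epithelium 3.95% and 8.29% of endometrial cells. By class, S100A11 had a fold of 0.665 in trophectoderm and 1.40 in macrophages or monocytes, against the direction of their libraries. The part of the class mix was not tested. The difference between tissues was not tested, since each group is 1 library, and it cannot be told apart from the enzymes used for dissociation.

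In the near-empty barcodes of the day 9 embryo, which enter no comparison, 5 members lay above their level in the kept cells of that library. They were S100A1 at 28.2 CPM, S100A4 at 65.3 CPM, S100A6 at 430.3 CPM, S100A11 at 1289 CPM and S100A12 at 8.90 CPM. The values by barcode stand in the report.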

How the results depend on the processing

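The count of members 2-fold or more apart stayed at 4 higher and 0 lower in the embryo under all 13 alternatives. In the endometrium the lower count ran from 8 to 11, and the higher count was 12 with no filter on low values, against 2 otherwise; the added pairs had under 20 CPM on both days. Of 540 alternative log2 ratios, 2 changed the sign of a called value: S100A4 in B or plasma cells was at 0.0763 with S100 genes among the variable genes and 0.0763 at Leiden resolution 1.0, against -1.21. S100A12 and S100A1 kept their direction throughout, with log2 ratios of 7.32 to 10.50 for S100A12 in uterine epithelium, 2.29 to 4.24 for S100A1 in trophectoderm and 2.41 to 3.77 in hypoblast, lowest with 10 CPM added. S100A6 ran from 3.55 to 4.35 and from 1.88 to 2.27 in the 2 embryo classes. The cause of each change was not tested. Depth limits S100A8 and S100A12 outside day 12 epithelium and every member in B or plasma cells. No paired analysis was possible because each group is 1 library.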
